A study of Mus musculus with 8 samples.

Results

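The genes described here code for the proteins that make microRNAs and small interfering RNAs and load them onto their effectors. They are Drosha, Dgcr8, Xpo5, Dicer1, Tarbp2, Prkra and the Argonaute genes Ago1, Ago2, Ago3 and Ago4, 10 genes of the 25574 rows in the deposited table of all genes. The rows were chosen by gene symbol: 6 of the 10 genes were listed under these symbols. The 4 Argonaute genes were not, and were taken from the rows with their older symbols Eif2c1 to Eif2c4, which RefSeq gives as synonyms at overlapping positions. No expression value was used to choose them.

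The data come from RNA sequencing of mouse oocytes fractionated by polysome profiling, in which a sucrose gradient separates mRNAs with several ribosomes from those with few or none. Each profile was made from 200 oocytes of CD1 females aged 8 weeks that had received 5 IU of pregnant mare serum gonadotropin 46 h earlier. The oocytes were cultured without the meiotic inhibitor IBMX for 180 min, during which those with nuclear envelope breakdown (NEBD) were selected, and then for 10 min with cycloheximide at 0.1 mg/ml, which holds ribosomes on mRNA. Of 10 gradient fractions, numbers 2 to 5 made up the non-polysomal (NP) dataset and numbers 6 to 10 the polysomal (P) dataset, with 4 libraries each, NP1 to NP4 and P1 to P4. Per the paper, both datasets came from the same 4 profiles. All oocytes thus shared strain, age, hormone, stage and cycloheximide, and NP against P was the only comparison. No genotype or further treatment was compared.

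In the nucleus, Drosha and its RNA-binding partner Dgcr8 cut primary microRNA transcripts to hairpins, which exportin-5, the product of Xpo5, carries to the cytoplasm. Dicer1 then cuts hairpins or long double-stranded RNA to short duplexes, helped by Tarbp2 or Prkra, and an Argonaute protein keeps a single strand as a guide. Ago2 is the Argonaute known for slicing its targets. Mouse oocytes are known for weak microRNA activity and for their need of Dicer1 and Ago2, which act there with endogenous small interfering RNAs. Mouse oocytes also make a shorter Dicer1 transcript from a promoter inside a retrotransposon. The values here are per gene and do not separate the transcripts of a gene.

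The 3′ ends of 5 members are shown because stored oocyte mRNAs are often turned on during maturation through a cytoplasmic polyadenylation element, a U-rich sequence close to the poly(A) signal. The letters TTTTAT and TTTTAAT were searched on the sense strand only, in the last 100 bases of the GENCODE M21 transcript with the longest coding sequence (build GRCm38). The shorter motif is not contained in the longer one. Capitals mark the match nearest to the 3′ end, and U is written as T, 5′ to 3′.
Dicer1 (3′ UTR, chr12:104687762-104687791, minus strand): ttttctttttctTTTTAATaattgtagtca
Ago1 (3′ UTR, chr4:126435012-126435036, minus strand): aacaacagtggcTTTTATttctaaa
Ago2 (3′ UTR, chr15:73095926-73095955, minus strand): atgatgtggataTTTTATaaagttattttg
Ago3 (3′ UTR, chr4:126332732-126332755, minus strand): agctaataaagtTTTTAATcaaaa
Prkra (3′ UTR, chr2:76629904-76629933, minus strand): gagctctgctcaTTTTATtacacagctact

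In Dicer1 the match began 38 bases before the transcript end, upstream of an AATAAA poly(A) signal that began 21 bases before the end. In Ago3 the order was the opposite, with the AATAAA 20 and the match 12 bases before the end. Ago2 had its match 100 bases and its AATAAA 30 bases before the end. In Ago1 and Prkra, with the nearest match 13 and 24 bases before the end, neither AATAAA nor ATTAAA occurred in the last 40 bases. No match was found in this window in Ago4, Tarbp2, Drosha, Dgcr8 or Xpo5. The motifs occurred in the same window of 19.2% of the 11841 genes tested that had a 3′ UTR of at least 100 bases. The search was added after the values were known and is a description of letters. For Ago2 the link between this end and the measured RNA is weak, since the table lists it in 2 rows. The one used below lies at chr15:73098592-73184840. The other, at chr15:73095844-73096684, covers the printed sequence and was at 0 in all libraries. For Ago3 the row used reaches chr4:126331704, beyond the printed transcript, which ends at 126332732. The printed Ago3 end may therefore not be that of the measured RNA.

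The values are FPKM, fragments scaled by the length of the gene and the mapped reads of the library, as the authors deposited them. They are relative to each library, so a value in P against NP compares how large a part of each pool a gene made up, and does not give the share of its mRNA on polysomes. Because each library pools 200 oocytes, fewer oocytes with an mRNA and less mRNA per oocyte cannot be told apart. The spacing of low FPKM values gave the number of reads that each library had been scaled to, 1299377 to 7594637 in NP and 2677946 to 4699328 in P. The genes above 0 numbered 11703 to 13753 per library in NP, and 9139 to 11339 in P. Markers of oocytes were abundant: all 8 were above 0 in every NP library and 7 in every P library, with summed FPKM of 5074 to 10520 in NP and 7256 to 28590 in P. The 12 markers of granulosa and cumulus cells summed to 15.3 to 145 in NP and 20.7 to 63.9 in P. Foxl2 and Inhba were at 0 in all libraries, while Cyp19a1 and Nr5a2 were above 0 in all. Cyp19a1 reached 75.2 FPKM in NP4 and 62.6 in P2, Nr5a2 61.4 in NP3, and Cyp11a1 46.4 in NP4. Of 3 blood and immune markers in the table, all were at 0 in P, and the sum was 0 to 35.9 in NP. The part of these cell markers and of depth in the results below was not tested.

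None of the 10 genes passed the adjusted threshold of 0.1 in either direction between P and NP. The largest separation was that of Tarbp2, which was higher in all NP libraries, and the largest values were those of Xpo5 and Ago4 in a single P library. The test was limma on log2(FPKM + 1), P over NP, with Benjamini-Hochberg adjustment over the 14292 genes with a mean above 0.1 FPKM in at least 1 dataset. All 10 members entered this test. Over all genes tested, 0.021% passed with higher values in NP and 0% with higher values in P, so a count of 0 members was close to the background. The adjusted p-values of the members in limma ranged from 0.425 to 0.942. At an unadjusted p below 0.05, 1 member was higher in NP and 0 in P, against 9.47% and 0.476% of all genes. The median log2 fold change of the members was −0.22, with 6 negative and 4 positive, beside a median of −0.39 over all genes tested, of which 71.4% were negative. With libraries centred on their median the median of all genes became 0.57, and Dicer1, Prkra and Dgcr8 turned positive, which left 3 negative and 7 positive members.

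**Figure D1:**
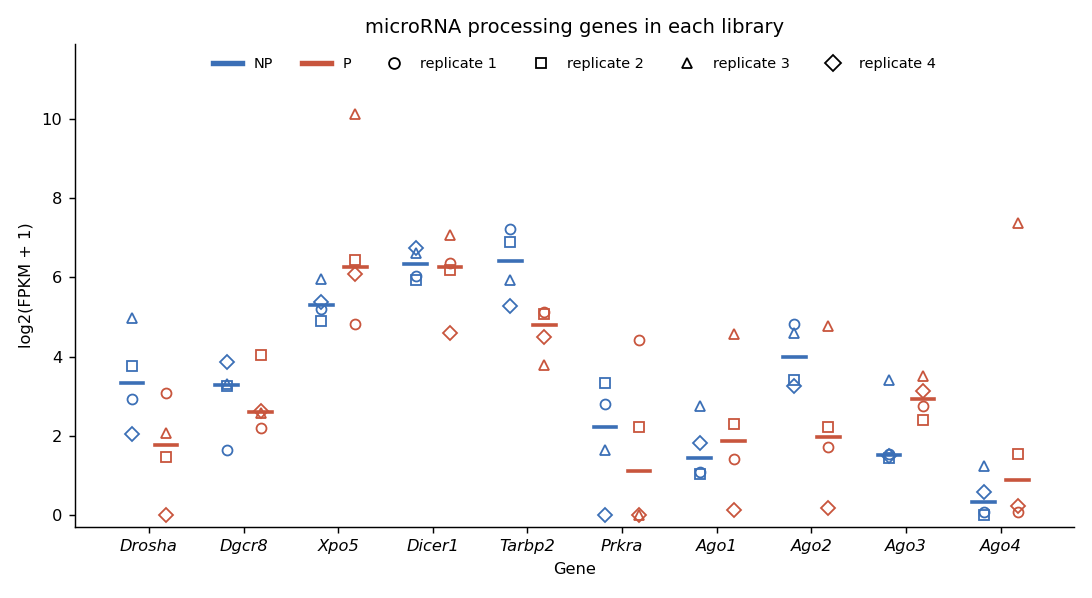
FPKM of the 10 genes on a log2(FPKM + 1) scale in each library, with NP in blue, P in red, a symbol for each replicate number and bars at the dataset medians. Tarbp2 is the only gene whose 4 NP values all lie above its 4 P values, and P3 stands far above the other P libraries for Xpo5, at 1119 FPKM, and Ago4, at 164 FPKM.

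By median level per gene length, Tarbp2, Dicer1 and Xpo5 led the members in both datasets. In NP the medians were 88.7 FPKM for Tarbp2, 81.3 for Dicer1 and 38.3 for Xpo5. The next genes were Ago2 at 16.4, Drosha at 9.59, Dgcr8 at 8.70, Prkra at 4.06, Ago3 at 1.86, Ago1 at 1.82 and Ago4 at 0.269 FPKM. Only at the step from Xpo5 to Ago2 did neighbours in this order not overlap, while Drosha, further down, exceeded in NP3 the lowest NP value of Xpo5.

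In P the order opened with Dicer1 at a median of 76.6 FPKM, Xpo5 at 76.3 and Tarbp2 at 27.3. It went on with Ago3 at 6.73, Dgcr8 at 5.06, Ago2 at 2.99, Ago1 at 2.80, Drosha at 2.46, Prkra at 1.85 and Ago4 at 1.05 FPKM. Again the only neighbours whose ranges did not overlap were the third and the fourth, here Tarbp2 and Ago3. In P3, however, Ago4, Ago2 and Ago1 were all above Tarbp2, and Ago4 was also above Dicer1. Among genes above 0 in a library, Dicer1 stood between the percentiles 69.0 and 94.0 in the 8 libraries.

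The nuclear cleavage pair had lower medians than Tarbp2, Dicer1 and Xpo5 in both datasets, and Drosha had a lower mean in P than in NP. Among genes above 0 in a library, Drosha stood between the percentiles 30.4 and 79.1 where it was detected, and Dgcr8 between 29.9 and 65.7. Drosha (chr15:12824815-12935290), the nuclease of the pair, was at 6.60, 12.6, 30.7 and 3.11 FPKM in NP1 to NP4 and at 7.42, 1.73, 3.18 and 0 FPKM in P1 to P4. The NP values were spread over a wide range, and P1 lay above both NP1 and NP4. The means were 13.2 ± 12.3 in NP and 3.09 ± 3.17 in P (SD, n = 4 each), with a ratio of 0.233 and a limma log2 fold change of −1.78 (SE 0.97, adjusted p = 0.539). The 0 in P4 allows up to 0.189 FPKM, taking 3 reads as the limit. Without NP3 the ratio was 0.415, and without P1 it was 0.124.

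Dgcr8 (chr16:18253948-18289249), which binds the primary transcript, was at 2.11, 8.56, 8.84 and 13.5 FPKM in NP1 to NP4. In P1 to P4 it was at 3.56, 15.4, 5.00 and 5.13 FPKM. The datasets overlapped throughout, with the lowest value in NP1 and the highest in P2. Means were 8.25 ± 4.68 in NP and 7.26 ± 5.45 in P (SD, n = 4 each), and the limma log2 fold change was −0.16 (SE 0.84, adjusted p = 0.942). Without P2 the ratio of means, 0.880, became 0.553. The log2 ratio of Dgcr8 to Drosha, taken after adding 1 to each FPKM, was −0.42 ± 1.57 in NP and 1.21 ± 1.71 in P, and the datasets overlapped.

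Xpo5 (chr17:46202855-46242299), the exporter of the hairpins, was the member with the highest single value. It was at 35.9, 28.6, 61.5 and 40.6 FPKM in NP1 to NP4 and at 27.2, 85.7, 1119 and 66.95 FPKM in P1 to P4. Of the P libraries, 3 were above all NP libraries and P1 was below all of them. P3 alone held 86.2% of the FPKM summed over P, from 18455 reads against 138 to 1660 in the other libraries. The means were 41.7 ± 14.1 in NP and 325 ± 530 in P (SD, n = 4 each), a ratio of 7.80, which fell to 1.44 without P3. On the log scale the limma fold change was 1.51 (SE 0.92, adjusted p = 0.580). Without P1 all P values lay above all NP values.

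Dicer1 (chr12:104687742-104751952), the enzyme that cuts the hairpins and the long double-stranded RNA, was abundant in both pools. It was at 65.2, 59.8, 97.5 and 106 FPKM in NP1 to NP4 and at 81.7, 71.6, 133 and 23.3 FPKM in P1 to P4. P3 had the highest and P4 the lowest value, so the P range enclosed the NP range. The means were 82.2 ± 23.2 in NP and 77.3 ± 44.8 in P (SD, n = 4 each), a ratio of 0.941, and the limma log2 fold change was −0.28 (SE 0.63, adjusted p = 0.854). It was backed by 615 to 7954 reads per library.

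Tarbp2 (chr15:102518192-102523676), the double-stranded RNA-binding cofactor of Dicer1, showed the clearest separation of the members. It was at 149, 117, 60.1 and 37.95 FPKM in NP1 to NP4 and at 34.2, 32.8, 12.8 and 21.8 FPKM in P1 to P4. All NP values lay above all P values, although NP4 exceeded P1 by little. The means were 91.0 ± 50.9 in NP and 25.4 ± 10.1 in P (SD, n = 4 each), a ratio of 0.279. Leaving out each library in turn gave ratios of 0.234 to 0.354, and the datasets stayed apart each time. The separation depended on the scaling between libraries and was lost after quantile normalization. With libraries centred on their median, the limma log2 fold change was −0.75 (unadjusted p = 0.2755, adjusted p = 0.573).

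For Tarbp2 an exact two-sided permutation test, with libraries taken as unpaired, gave p = 0.0286, the smallest that 4 against 4 unpaired libraries allow. The limma log2 fold change was −1.71 (SE 0.65), with an unadjusted p of 0.0194 and an adjusted p of 0.425. Such a separation was not rare in these data: all NP above all P held for 5.92% of the genes tested and for 1 of 10 members, and the opposite for 0.357% of the genes and 0 members. In each library Tarbp2 was supported by 258 to 2158 reads. Its percentile among genes above 0 was 79.6 to 93.2 in NP and 62.9 to 78.2 in P.

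Prkra (chr2:76629898-76648015), the alternative cofactor, was detected irregularly. It was at 6.02, 9.11, 2.10 and 0 FPKM in NP1 to NP4 and at 20.4, 3.69, 0 and 0 FPKM in P1 to P4. With 3 reads as the limit, the zeros allow up to 0.195 FPKM in NP4, 0.333 in P3 and 0.552 in P4. P1 was the highest of all 8 and held 84.7% of the P sum. The means were 4.31 ± 4.06 in NP and 6.01 ± 9.72 in P (SD, n = 4 each), a ratio of 1.40 that became 0.286 without P1. The limma log2 fold change was −0.28 (SE 1.13, adjusted p = 0.919), of the opposite sign to the ratio of means.

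Prkra was below Tarbp2 in all 8 libraries. The log2 ratio of Prkra to Tarbp2, after adding 1 to each FPKM, was −4.41, −3.55, −4.30 and −5.28 in NP1 to NP4 and −0.72, −2.85, −3.78 and −4.51 in P1 to P4. The P values reached higher, and P3 and P4 lay within the NP range. The log2 ratio of Dicer1 to Tarbp2 was 0.0034 ± 1.28 in NP and 1.43 ± 1.34 in P, again with overlap. The corresponding ratio of Dicer1 to Drosha was 2.91 ± 1.35 in NP and 4.41 ± 0.76 in P (SD, n = 4 each), also with overlap.

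**Figure D2:**
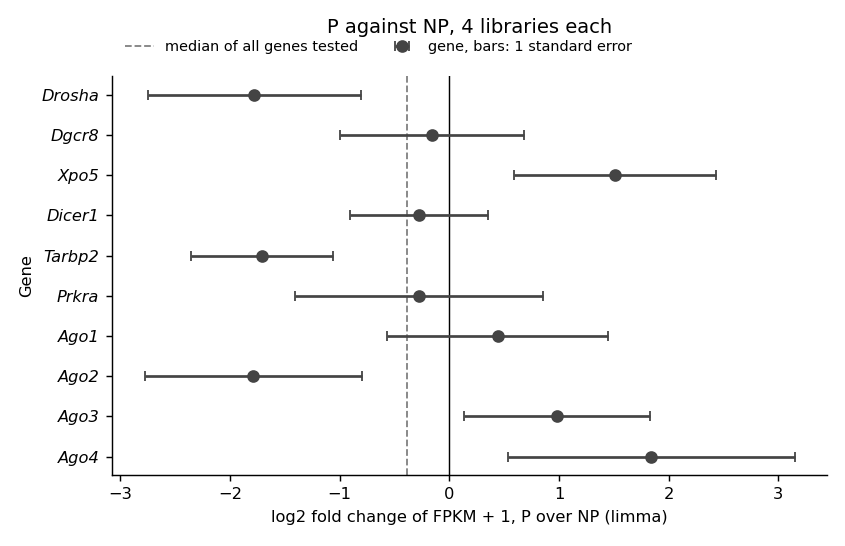
limma log2 fold changes of FPKM + 1, P over NP, for the 10 genes with bars of 1 standard error (4 libraries per dataset). The dashed line marks the median of all genes tested, −0.39, and the values run from −1.79 for Ago2 to 1.84 for Ago4.

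Of the Argonaute genes, whose proteins hold the guide strand, Ago2 had a lower mean in P than in NP, and Ago1, Ago3 and Ago4 had a higher one. None of them passed the test. Ago2 (chr15:73098592-73184840), the slicing Argonaute, was at 27.2, 9.55, 23.3 and 8.50 FPKM in NP1 to NP4 and at 2.27, 3.70, 26.3 and 0.136 FPKM in P1 to P4. P1, P2 and P4 lay below all NP libraries, and P3 lay within the NP range. The means were 17.2 ± 9.53 in NP and 8.10 ± 12.2 in P (SD, n = 4 each), with a ratio of 0.472. The limma log2 fold change was −1.79 (SE 0.99, adjusted p = 0.541). P3 held 81.1% of the P sum. Without P3 the ratio was 0.119 and all NP values lay above all P values.

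Ago1 (chr4:126435012-126468583), which like Ago3 and Ago4 is not known mainly as a slicer, was at 1.12, 1.04, 5.70 and 2.51 FPKM in NP1 to NP4. In P1 to P4 it was at 1.68, 3.92, 22.8 and 0.0920 FPKM. P3 was the highest and P4 the lowest of all 8, the latter from 2 reads. The means were 2.59 ± 2.18 in NP and 7.12 ± 10.6 in P (SD, n = 4 each). Their ratio was 2.75, or 0.731 without P3, which held 80.0% of the P sum. The limma log2 fold change was 0.44 (SE 1.01, adjusted p = 0.860).

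Ago3 (chr4:126331704-126429556) was at 1.89, 1.72, 9.57 and 1.82 FPKM in NP1 to NP4 and at 5.73, 4.25, 10.4 and 7.73 FPKM in P1 to P4. All P values were above NP1, NP2 and NP4, and only NP3 lay among them. The means were 3.75 ± 3.88 in NP and 7.04 ± 2.68 in P (SD, n = 4 each), with a ratio of 1.88 and a limma log2 fold change of 0.98 (SE 0.85, adjusted p = 0.667). Without NP3 the ratio was 3.89 and all P values lay above all NP values. Ago3 was the one Argonaute gene whose P sum was spread over all libraries.

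Ago4 (chr4:126489541-126533472) was low in all libraries but P3. It was at 0.0451, 0, 1.34 and 0.493 FPKM in NP1 to NP4 and at 0.0613, 1.93, 164 and 0.161 FPKM in P1 to P4. P3 stood alone, with 5067 reads and 98.7% of the P sum, while the other 7 libraries held 0 to 68 reads. The ratio of means was 88.3 with P3 and 1.53 without it, and the limma log2 fold change was 1.84 (SE 1.31, adjusted p = 0.637). The 0 in NP2 allows up to 0.332 FPKM at 3 reads. Ago3, Ago1 and Ago4 lie next to each other on the minus strand of chromosome 4, and their values in P3 were 10.4, 22.8 and 164 FPKM. However, Ago3 was also at 9.57 FPKM in NP3. Ago2 and Xpo5, on other chromosomes, had their highest P values in P3 too, at 26.3 and 1119 FPKM. A role of position was not tested.

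Ago2 made up a larger share of the summed FPKM of the 4 Argonaute genes in NP than in P, a quantity in which the scaling of a library cancels. It was 89.9, 77.6, 58.4 and 63.8% in NP1 to NP4 and 23.3, 26.8, 11.8 and 1.68% in P1 to P4. Every NP library was above every P library, with means of 72.4 ± 14.2% and 15.9 ± 11.5% (SD, n = 4 each). No test was made of this share. Leaving Ago4 out of the sum, a choice made after seeing the data, gave 60.5 to 90.0% in NP and 1.71 to 44.2% in P, still without overlap.

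In P the largest share belonged to Ago3 in P1, P2 and P4 and to Ago4 in P3. Ago3 made up 58.8, 30.8, 4.67 and 95.2% in P1 to P4 and 6.25 to 23.9% in NP, and Ago4 made up 73.4% in P3. The ratio of Ago2 to Ago3 was 2.44 to 14.4 in NP, and in P it was 0.0176 to 2.52, with P3 just above NP3. The summed FPKM of the family was 12.3 to 39.9 in NP and 9.74, 13.8, 224 and 8.12 in P1 to P4. In P4 the Ago2 value rested on 4 reads, and reads from related genes may be hard to assign.

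**Figure D3:**
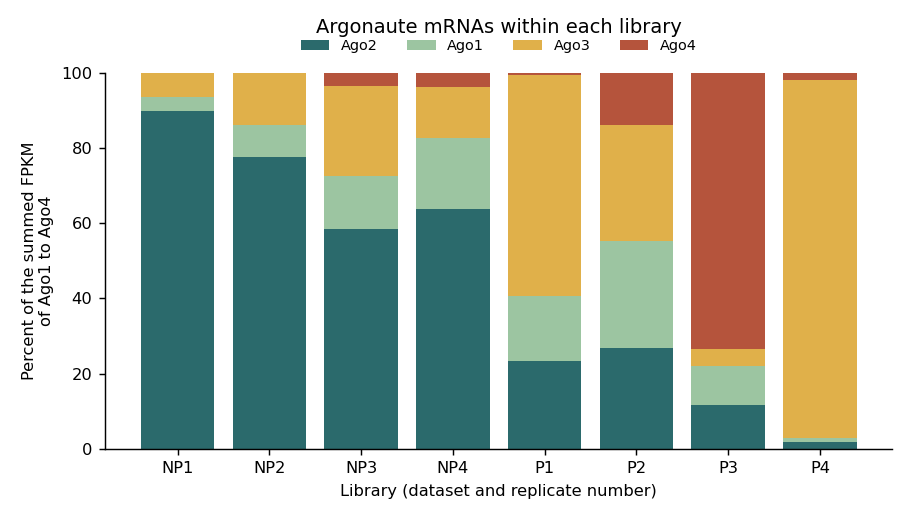
Percent of the summed FPKM of Ago1 to Ago4 that each gene made up in each library, as stacked bars. Ago2 makes up 58.4 to 89.9% in the NP libraries and 1.68 to 26.8% in the P libraries, where Ago3 or, in P3, Ago4 takes a large part.

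Uneven P libraries were common. For 5 of the 10 members, Ago1, Ago2, Ago4, Prkra and Xpo5, a single P library held over 75% of the FPKM summed over P, against 31.2% of all genes tested. P3 was that library for all of these except Prkra, for which it was P1. The summed FPKM of the 10 members was 215 to 301 in NP and 184, 225, 1497 and 125 in P1 to P4. The libraries were made by whole transcriptome amplification with no molecular identifiers reported, so read numbers are not numbers of molecules, and the limits given for zeros cover counting error only.

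The rest of the pathway was described with a list of 41 further genes of the nuclear steps, of Argonaute loading, of effectors and partners, and of small RNA trimming, tailing and turnover. Of these, 40 were tested, 0 passed the adjusted threshold, and limma adjusted p-values ranged from 0.416 to 0.998. The median log2 fold change was −0.15, with 26 negative and 14 positive. By step the median was −0.39 for 6 genes of the nuclear steps, 0.31 for 8 of loading, −0.12 for 11 effectors and partners and −0.22 for 15 of trimming, tailing and turnover. Zcchc11, a uridylating enzyme, did not pass the filter on low values.

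Trim71, an RNA-binding ubiquitin ligase that acts with Argonautes and is a known target of let-7, was the 1 gene of these 40 whose datasets did not overlap. This share was no larger than that of all genes, of which 5.92% had all NP above all P. It was at 88.4, 66.9, 51.8 and 54.7 FPKM in NP1 to NP4 and at 25.9, 24.9, 18.6 and 10.4 FPKM in P1 to P4, so every NP library was above every P library. The means were 65.5 and 19.95, with a ratio of 0.305 and a limma log2 fold change of −1.71 (SE 0.59, unadjusted p = 0.0122, adjusted p = 0.416). It was also the 1 gene of the 40 with an unadjusted p below 0.05 in limma, where 9.47% of all genes were higher in NP at that level. With libraries centred on their median, the limma log2 fold change of Trim71 was −0.75 (unadjusted p = 0.2425).

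The 3 further genes with the highest mean over the 8 libraries did not pass the test. Ahsa1, an activator of the chaperone Hsp90, had means of 100.1 FPKM in NP and 276 in P, with a limma log2 fold change of 1.16 (SE 0.69, adjusted p = 0.569). Ran, the GTPase that works with exportin-5, had means of 90.8 and 237 FPKM and a limma log2 fold change of 1.0 (SE 0.94, adjusted p = 0.684), or 0.34 without P1 and 0.47 without NP4. Without P4 the value for Ran was 1.95, and without NP1 it was 1.51. Tsn, a subunit of the nuclease that clears cut strands, had means of 188 ± 264 in NP and 47.8 ± 26.0 FPKM in P (SD, n = 4 each) and a limma log2 fold change of −1.20 (SE 0.85, adjusted p = 0.637). NP4, at 582 FPKM, held 77.2% of its NP sum, the other 7 libraries lay between 16.0 and 92.2 FPKM, and the log2 fold change without NP4 was −0.34. Among the scaffold genes that link Argonautes to deadenylation, the limma log2 fold changes were −0.31 for Tnrc6a (adjusted p = 0.887), 0.71 for Tnrc6b (0.717) and 0.50 for Tnrc6c (0.847).

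**Figure D4:**
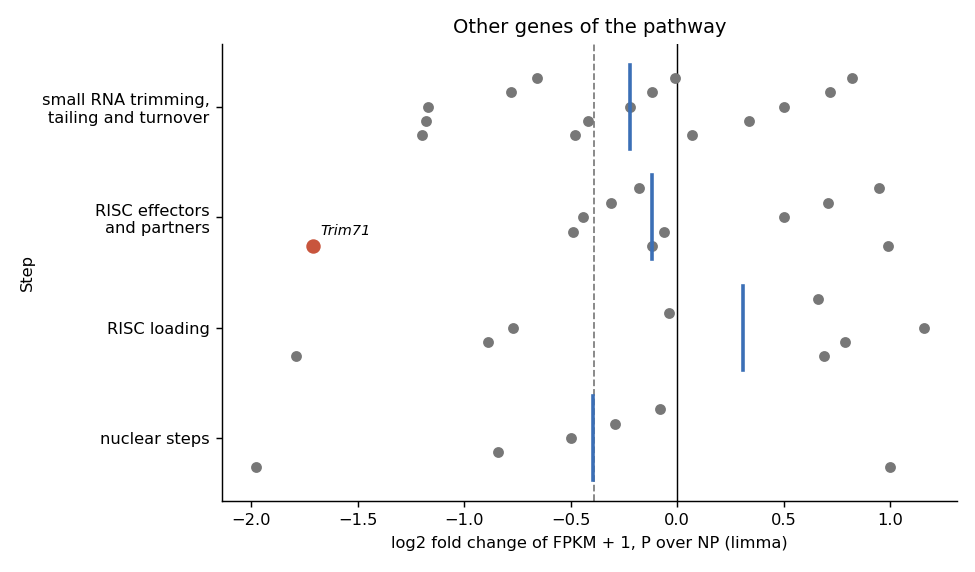
limma log2 fold changes of FPKM + 1, P over NP, for 40 further genes of the pathway, each point a gene placed by its step, with blue bars at the median of the step and a dashed line at the median of all genes tested, −0.39. Trim71, in red, is the gene whose NP libraries all lie above its P libraries.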

How the data were processed

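SSP-profiling RNA-seq of NEBD-stage oocytes gave 8 libraries, grouped and numbered by their titles. Per the labels, ribosomal RNA was removed, RNA was reverse transcribed with random and oligo(dT) primers, and cDNA was amplified with REPLI-g WTA before Nextera library preparation. Per the submitters' processing notes the tools included Trim Galore 0.4.1, FastQC 0.11.5, HISAT2 2.0.5 and DESeq2, with the build GRCm38. The authors deposited FPKM values, computed in SeqMonk per gene and not log-transformed, and the sources used here do not say whether reads were counted by strand. Tables of expressed genes and of the authors' own DESeq2 comparison (fold changes and p-values) were not used.

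The genes and lists were chosen with earlier results of these data known. Genes with a mean above 0.1 FPKM in at least 1 dataset were tested with limma 3.58.1 (R 4.3.3, trend) on log2(FPKM + 1), which understates changes of low genes, with no block and a threshold of 0.1 after Benjamini-Hochberg adjustment. Single genes were also tested by exact permutation over 70 assignments. Named were all 10 members and, of further pathway genes, those without overlap (at most 8), the 3 with the highest mean and the Tnrc6 genes. Values per gene were set beside the share of all genes that passed the same rule. The labels state that samples are replicates, and p-values measure the spread between these libraries. Each profile gave both an NP and a P pool, but limma without a block and the permutation treat all libraries as independent.

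FPKM steps were turned into whole reads for 13589 of 15585 genes above 0 (87.2%), within 0.01 of a read plus a relative 2e-06, using GENCODE M21 exon lengths for 6974 genes and a searched length for 6615. In all 10 members this gave whole reads, with the annotated length for Tarbp2 and Prkra and a searched length for the others. For Ago1, Ago3 and Ago4 the searched length equalled the annotated one. It was 3709 bases for Xpo5 (6859 annotated), 9851 for Dicer1 (16750) and 10957 for Ago2 (14031), so their read numbers rest on a fitted length. The limma fit was tested on simulated data for P against NP with 14292 genes: of 100 genes shifted by 4-fold 7% were called, and of 100 shifted by 16-fold 55%. There were 7 false calls among the genes not shifted. The shifted genes were drawn only from those above a set mean level, with normally distributed and independent libraries. These shares therefore do not carry over to low and uneven genes such as Ago4. Alternatives were another pseudocount, other filters and scalings, a replicate block, voom on recovered reads and leaving out each library. Python 3.11.15 was used for the other steps.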

Additional observations from a re-analysis of the deposited data

Results flagged for a closer look

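In groups of 4 libraries, a library was looked at again when its gap to the nearest other library passed the limit of Dixon's test for a share of the whole range of the group. Of 20 groups, 6 had such a library. The limit is set so that chance gives about 1 in 20 for normally distributed values, which skewed FPKM of amplified libraries are not, so the 6 are not read as an excess. In P3 these were Xpo5 at 1119 FPKM, Ago4 at 164 FPKM, Ago2 at 26.3 FPKM and Ago1 at 22.8 FPKM. The others were Ago3 at 9.57 FPKM in NP3 and Dgcr8 at 15.4 FPKM in P2. The cause was not tested.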

How the results depend on the processing

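No member and no further pathway gene passed the adjusted threshold in any of the 15 alternatives. Over all genes limma called 3, all higher in NP. This became 0 with libraries centred on their median, with no filter and with quantile normalization, 5 with a mean FPKM above 1 and with a pseudocount of 0.1, 189 with voom on recovered reads (187 higher in NP) and 0 to 5 when 1 library was left out. Replicate numbers were not taken as pairs in the main fit, because the sources do not say that a number marks the same profile in NP and P. Deviations of the same number correlated at 0.139, 0.0518, 0.251 and 0.155 over 11374 genes, and 7 of 8 libraries correlated best with their own number. A replicate block left 1 call. The scalings moved the median log2 fold change of all genes from −0.39 to 0.57 (median centring) or −0.02 (quantile), so signs near 0 depend on it. Members without overlap numbered 1 in the main data and 1 with median centring, where the count does not name the gene. They numbered 0 under quantile normalization and 1 to 2 with 1 library left out. The second was Ago3 without NP3, Xpo5 without P1 or Ago2 without P3.

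Tarbp2, Ago2, Ago3, Ago4, Drosha, Xpo5, Trim71, Ahsa1, Ran, Tsn and Tnrc6b kept their sign in all 15 alternatives, Tarbp2 between −2.05 and −0.75, Ago2 between −2.64 and −0.84, Drosha between −2.95 and −0.82 and Ago3 between 0.79 and 1.94. Others came close to 0: Ago4 ran from 0.15 to 2.95, Xpo5 from 0.42 to 2.47, Ran from 0.34 to 1.96, Tnrc6b from 0.37 to 1.67 and Tsn from −1.65 to −0.25. Median centring turned Dicer1 to 0.68, Prkra to 0.67, Dgcr8 to 0.80 and Tnrc6a to 0.65. Quantile normalization turned Prkra to 0.21, Dgcr8 to 0.57 and Tnrc6a to 0.38, and voom turned Ago1 to −0.05. With 1 library left out the log2 fold change ran from −0.62 to 0.20 for Dicer1, −0.39 to 1.10 for Ago1, −1.20 to 0.27 for Prkra, −0.62 to 0.13 for Dgcr8, −0.84 to 0.24 for Tnrc6a and −0.34 to 1.02 for Tnrc6c. The cause was not tested.

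With voom, Tarbp2 had a log2 fold change of −1.58 (unadjusted p = 0.0396, adjusted p = 0.351) and Ago2 of −2.46 (0.0447 and 0.363). The low-level genes rest on few reads, down to 2 for Ago1 and 4 for Ago2 in P4.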
